A study of Rattus norvegicus with 6 samples.

Results

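The transcripts followed here are 9 factors of forebrain regional identity, namely the homeobox genes Lhx2, Pax6, Emx2, Meis2 and Nkx2-2, the zinc finger genes Zic1 and Zic2, and the nuclear receptor genes Nr2f1 and Nr2f2. They were taken by exact gene symbol, and each symbol had 1 of the 17048 rows in every count table. The cells were wild-type rat neural stem/progenitor cells (rNSPCs), which the methods describe as grown from embryonic Sprague-Dawley telencephalon as spheroids with EGF and bFGF. They were seeded for 24 h in stemness maintenance medium on carbon nanotube and graphene oxide nanoribbon films of “High”, “Medium” or “Low” electrical conductivity, each coated with laminin over an amount of poly-D-lysine set for that film, with 2 libraries for each of the 3 films. All films were made from the same carbon nanotubes, but their conductivity was set by the length of oxidation. The paper reports more oxygen groups with longer oxidation, so surface chemistry changed with film and cannot be told apart from conductivity. No film-free culture is among the 6 libraries, so “High” was the group against which the others were set. No source says whether the 2 libraries of a film came from separate cultures or embryos, so the p-values measure the spread between these libraries, which may be technical.

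These factors are drawn on as a map of the embryonic forebrain. In the telencephalon, Lhx2 and Pax6 mark and maintain cortical progenitors, Emx2 is graded toward caudal and medial cortex, and Nr2f1 (also called COUP-TFI) is graded across the cortical sheet and sets area identity. Nr2f2, its close relative, is typical of caudal and ventral territories, Meis2 of the lateral and ventral telencephalon, Zic1 and Zic2 of the dorsal midline and medial wall, and Nkx2-2 of ventral neural tube outside the cortex, where it is induced by Sonic hedgehog. They are transcription factors, and the counts measure their messenger RNA, neither the amount nor the activity of the proteins.

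Of the 9 factors, 6 had enough counts to be tested, and all 6 had higher fitted levels on the Low and Medium films than on High (log2 fold changes of 0.72 to 3.03). None of them passed an adjusted p of 0.05 in edgeR's quasi-likelihood test, while DESeq2 called Lhx2. Lhx2 was the most uniform, about 3.43 times higher on the Low and Medium films with no overlap between libraries, and Zic2 had the widest separation, with counts in 1 of 2 High libraries and in 4 of 4 others. Pax6 and Emx2 overlapped between films. Zic1 and Nkx2-2 had no count in any library, and Nr2f2 had counts in 1 library only. In bulk RNA, fewer cells that express a factor and less of its RNA per cell cannot be told apart.

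The libraries held 5124863 to 6213676 counts, of which ribosomal RNA rows took 26.1% and 38.4% in High against 7.16% to 13.0% in the other 4. Values are CPM, counts normalized to library size after TMM scaling, which sets the libraries to one scale from the bulk of the genes. Because QuantSeq counts the 3′ end of each transcript, CPM is not divided by transcript length, and no comparison of levels between genes is made. Sparse detection was common, with 202 to 1882 rows per library at 0 where the other library of the same film had at least 50 counts. The telencephalic origin given in the methods was checked against genes of other regions. None of the 15 listed genes of midbrain, hindbrain and spinal cord that had a row (Hox genes, En2, Pax2 and others) had a count, whereas 3 of 15 genes of diencephalon, midbrain and their borders did (Tcf7l2, Pax7 and Foxa2). Telencephalic genes such as Gli3, Nr2e1 and Tbr1, named here after their values were seen, were at 0 as well, so zeros alone do not place these cells in 1 region. Neural progenitor markers Vim, Sox9 and Sox2 were abundant, while the neuronal markers Tubb3 and Map2 and the microglial marker Aif1 were at or near 0 in most libraries. Tubb3 had 96 and 72 counts in the Low libraries and Map2 had 138 and 20, with at most 6 of either elsewhere. The whole neuronal list summed to 33 and 12.6 CPM on High, 0.172 and 0.984 on Medium, and 33.9 and 29.7 on Low.

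Lhx2 encodes a LIM-homeodomain factor that keeps cortical progenitors in a cortical rather than a midline fate. High libraries gave 508 and 327 counts, Medium libraries 1954 and 1646, Low libraries 2099 and 2039. On the CPM scale this was 91.3 ± 18.8 (SD, n = 2) on High, 303 ± 46.2 on Medium and 323 ± 27.0 on Low. The lowest Low or Medium library, at 270 CPM, was 2.58 times the highest High library, at 105 CPM. The log2 fold change was 1.78 (standard error 0.42) for Low and Medium together against High, 1.82 (0.45) for Low alone and 1.73 (0.45) for Medium alone. It ranked 38 by p-value among 7729 genes tested for Low and Medium against High, with an adjusted p of 0.332 in edgeR's quasi-likelihood test (0.533 for Low and 0.530 for Medium alone). DESeq2 called Lhx2 (adjusted p = 5.1e-06), in a fit in which it called 4.54% of all genes tested. The edgeR test called it only when Medium replicate 2 was left out (adjusted p = 0.0308), and then it called 2.79% of all genes.

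Zic2 encodes a zinc finger protein that is needed for midline forebrain development. The 2 High libraries held 142 and 0 counts, the Medium libraries 1003 and 821, the Low libraries 668 and 537. The means were 14.6 ± 20.7 CPM (SD, n = 2) on High, 153 ± 26.5 on Medium and 93.5 ± 4.70 on Low, so that Low and Medium libraries were close to each other within a film and the High libraries were not. Each Low and Medium library was at least 3.08 times the higher of the High libraries. The log2 fold change of 3.03 had a standard error of 1.63 (adjusted p = 0.801, ranked 740 by p-value). Without High replicate 1, edgeR called Zic2 (adjusted p = 0.000735) and 0.491% of all genes. That fit sets the other films against 1 library at 0, which is assumed to vary as the Low and Medium libraries do, so the call rests on that library. The mean of the Low and Medium libraries was 172-fold above the 3 counts that counting error allows in a library at 0. This ratio is no lower bound on the difference, because libraries of a film often disagreed on rows at 0. Without High replicate 2 the log2 fold change was 2.03 and the gene was not called.

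Zic1, the relative of Zic2 beside which it is often expressed, had 0 counts in all 6 libraries. By counting error alone this allows up to 3 counts per library, or 0.435 to 0.716 CPM. The authors counted reads with several alignments as well as unique ones, and with Zic1 at 0 no read counted for Zic2 was also counted for Zic1.

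Nr2f1 encodes an orphan nuclear receptor that patterns cortical areas. High libraries gave 366 and 232 counts, Medium libraries 878 and 504, Low libraries 871 and 1015. These correspond to 65.4 ± 14.2 CPM (SD, n = 2), 117 ± 48.1 and 148 ± 31.2. No Low or Medium value was under a High value, but Medium replicate 2, at 82.7 CPM, was only 1.10 times High replicate 1, at 75.4 CPM. The log2 fold change was 1.01 (standard error 0.69, adjusted p = 0.803) for Low and Medium, and 1.18 (0.77) and 0.84 (0.76) for Low and Medium alone.

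Nr2f2 had 107 counts in Medium replicate 2, or 17.5 CPM (exact Poisson 95% interval 14.4 to 21.2, which covers counting error only), and 0 in the other 5 libraries. It did not pass the filter on low counts and was not tested. Medium replicate 2 was also the library with most counts of the meningeal and vascular markers Col1a1 (2005 counts) and Col3a1 (384), collagens of fibroblasts and mural cells, while the methods state that meninges were removed and 5 of the 8 markers of that list (Dcn, Lum, Pdgfrb, Pecam1 and Cdh5) were at 0 in every library. In the other libraries the 8 markers of that list summed to 0 to 35.8 CPM, against 392 in Medium replicate 2. Col1a2, also a collagen of that list, went the other way, with 0 counts in Medium replicate 2 and 34 in High replicate 2. The part of these markers in the Nr2f2 counts was not tested.

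Meis2, a TALE homeodomain cofactor of other homeodomain proteins, gave 303 and 66 counts on High films, against 371 and 867 on Medium films and 613 and 374 on Low films. The film means were 39.1 ± 33.0 CPM (SD, n = 2), 103 ± 55.5 and 75.8 ± 18.4. The Low and Medium libraries all lay above High, but Low replicate 2 at 62.8 CPM was 1.01 times High replicate 1 at 62.4 CPM, and the order was lost with relative log expression size factors or without the ribosomal RNA rows. The log2 fold change was 1.18 (standard error 1.05, adjusted p = 0.912).

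Emx2, a homeodomain factor of caudal and medial cortex, gave 230 and 498 counts on High films, against 1204 and 456 on Medium films and 862 and 849 on Low films. The means of 83.1 ± 50.5 CPM (SD, n = 2) on High, 141 ± 93.2 on Medium and 134 ± 12.5 on Low overlapped, because Medium replicate 2, at 74.8 CPM, lay under High replicate 2, at 119 CPM. The log2 fold change was 0.72 (standard error 0.72, adjusted p = 0.942). For Medium alone it was 0.76 (0.81), and −0.15 without Medium replicate 1. RefSeq places an antisense RNA gene, Emx2os, at this locus, and the sources used here do not say whether counting used strand, so reads of the pair cannot be told apart.

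Pax6, the paired-domain factor of cortical radial glia, was the least repeatable of the 6. The 2 High libraries held 151 and 0 counts, the Medium libraries 25 and 379, the Low libraries 455 and 43, so that each film had 1 library near or under 7.22 CPM and 1 library at 31.1 CPM or more. The means were 15.6 ± 22.0 CPM (SD, n = 2) on High, 33.2 ± 40.9 on Medium and 36.6 ± 41.5 on Low. The log2 fold change of 1.16 had a standard error of 2.63 (adjusted p = 1), and it was −0.32 without Medium replicate 2 and −0.01 without Low replicate 1. Nkx2-2, a ventral factor that also belongs to the oligodendrocyte lineage, had 0 counts in all 6 libraries.

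**Figure D1:**
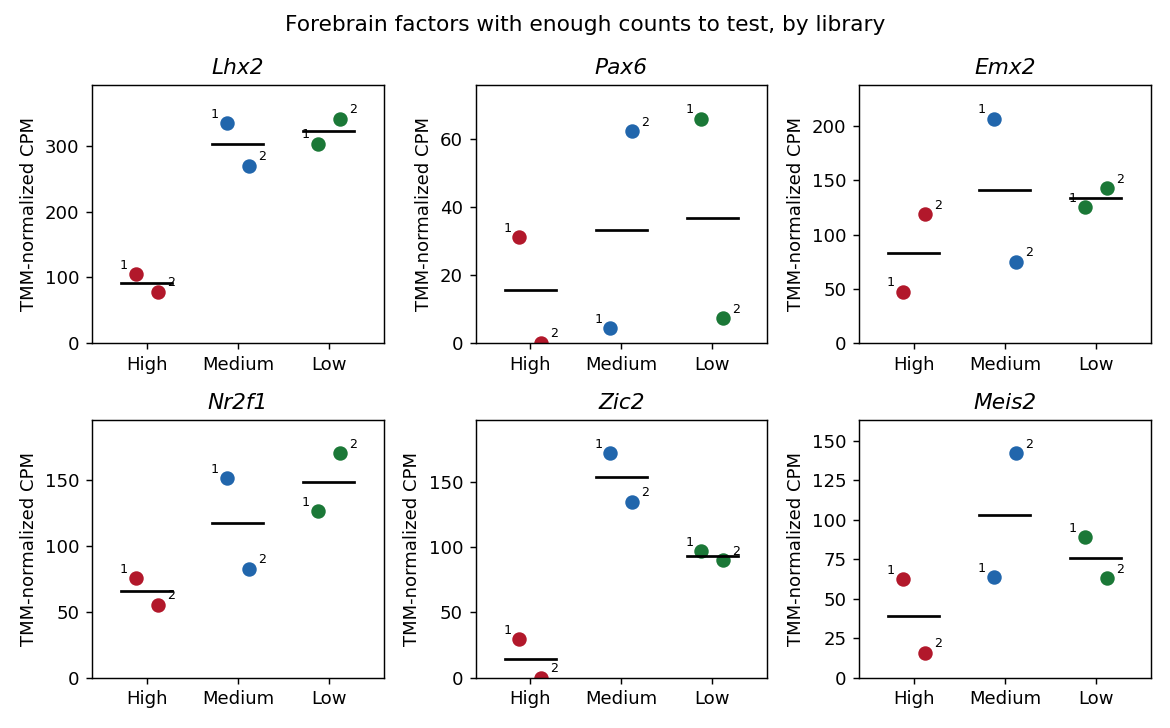
TMM-normalized CPM (linear axis from 0) of the 6 forebrain factors with enough counts to test, in each library of the High, Medium and Low films. Points are libraries with their replicate number and lines are means of 2; Lhx2 and Zic2 lie apart from High in all 4 Low and Medium libraries, while the Pax6 libraries of each film fall far apart.

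The factors differed in how closely the 2 libraries of a film agreed. On the log2(CPM + 1) scale, the libraries of a film differed by 0.17 to 0.42 for Lhx2 and by 0.43 to 0.86 for Nr2f1. For Pax6 they differed by 3.03 to 5. Zic2 combined both, with differences of 0.10 in Low and 0.35 in Medium but 4.92 in High. Over the 6 factors the median difference was 1.61 in High, 1 in Medium and 0.31 in Low, against 1.01, 1.5 and 1.02 over all genes tested.

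For Low and Medium against High, 0 of the 6 factors tested were called by edgeR's quasi-likelihood test at an adjusted p under 0.05, where 0.129% of the 7729 genes tested were called. DESeq2 called 1, Lhx2. At an unadjusted p under 0.05 there was 1 factor, again Lhx2 and higher, where 5.50% of all genes reached that level and 2.69% did so as higher. For Low against High 0 of 6 were called (0.0518% of all genes), and for Medium against High 0 of 6 (0.0129%), with Lhx2 the only factor under an unadjusted p of 0.05 in each. Both contrasts use the same High libraries, so that the values of a factor in them are not independent. Low and Medium did not separate: 0 of 6 factors were called between them (0% of all genes by edgeR), 0 had an unadjusted p under 0.05, DESeq2 called 0, and the log2 fold changes of Low against Medium ran from −0.71 for Zic2 (standard error 1.6) to 0.35 for Nr2f1 (0.76). For Lhx2 the value was 0.09 (0.44), the smallest standard error of the 6, and the largest was that of Pax6 (2.88), so that similar levels on the 2 films are not shown by these values.

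**Figure D2:**
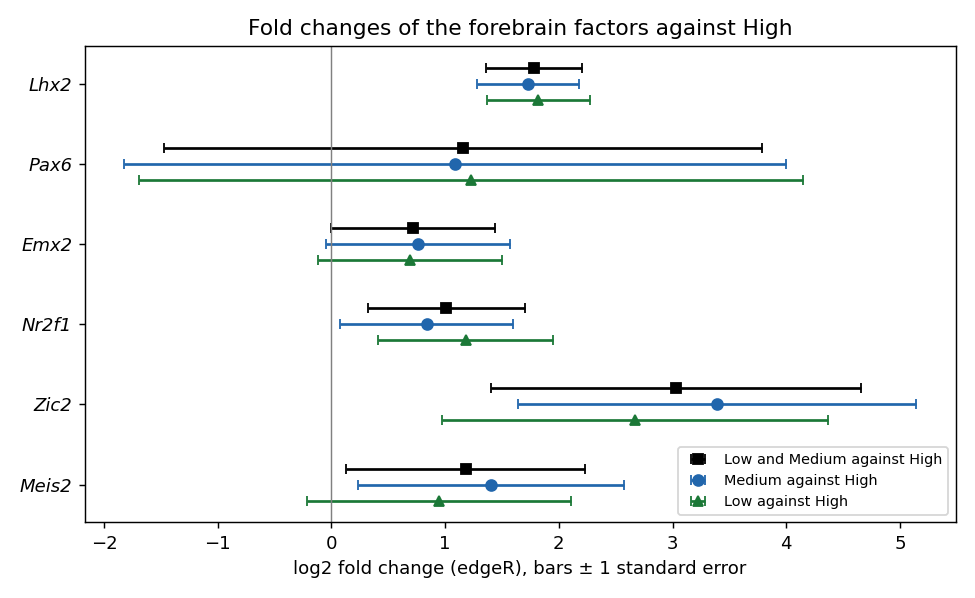
Log2 fold change against High with ± 1 standard error from edgeR for each factor tested, for Low and Medium together, Medium alone and Low alone. Every point lies above 0, the bars of Lhx2 are the shortest (standard errors 0.42 to 0.45) and those of Pax6 the longest (2.63 to 2.92).

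The order of the libraries was also read without a model. In 4 of the 6 factors tested (Lhx2, Zic2, Nr2f1 and Meis2) each of the 4 Low and Medium values exceeded both High values, and in 0 each was below both. Over all genes tested the share above was 8.06%. The smallest two-sided p that an exact permutation test of 1 gene can give with 4 against 2 libraries is 0.133, so this order alone reaches no threshold. The median log2 fold change of the 6 factors was 1.17, beside −0.12 over all genes tested, of which 45.9% had a positive value. Scaled by library size without TMM, these medians were 1.47 and 0.26. A scaling acts on all genes of a library alike, so this shared shift is no result about the factors. The factors were listed with earlier results of these libraries known, so these counts are descriptions and no test of the list was made.

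Other measures moved with these factors. The listed progenitor markers, of which 6 of 8 had counts (Hes5 and Msi1 were at 0), summed to 3430 and 3200 CPM on High, to 5470 and 5440 on Medium and to 4500 and 6170 on Low. Among them Sox2, the pluripotency and neural stem cell factor, had means of 267 ± 1.56 CPM (SD, n = 2) on High, 576 ± 31.1 on Medium and 694 ± 16.0 on Low (log2 fold change 1.24, standard error 0.27, adjusted p = 0.212). Nes, the progenitor intermediate filament, had a log2 fold change of 1.64 (0.43, adjusted p = 0.468). Sox9 and Vim, also in this list, had all 4 Low and Medium libraries above High. Vim alone made up most of each sum, with 2150 and 1980 CPM on High, 3100 and 2990 on Medium, and 2560 and 3680 on Low. Its log2 fold change was 0.58 (standard error 0.2, adjusted p = 0.778). The remaining 2 markers with counts overlapped between films and had negative log2 fold changes, of −0.60 (0.55) for Fabp7, a radial glial lipid-binding protein, and −0.82 (1.31) for Hes1, a Notch effector. Of the astrocyte list, 1 of 3 tested genes lay above High in all 4 libraries (Slc1a3, log2 fold change 0.85, standard error 0.46, adjusted p = 0.801). The same held for 1 of 4 in the oligodendrocyte lineage list (Olig2, 0.97, standard error 0.34, adjusted p = 0.778). Over all genes tested, 8.06% lay above High in this way. Counts of Lhx2 per count of Sox2, a ratio chosen after the values were seen and free of any scaling between libraries, were 39.0% and 29.3% on High, 56.1% and 48.7% on Medium, then 43.1% and 50.1% on Low. The ratio was therefore lower in both High libraries, by a smaller margin than Lhx2 itself. The part of the progenitor and glial markers, and of the larger ribosomal RNA share of the High libraries, in these differences was not tested.

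**Figure D3:**
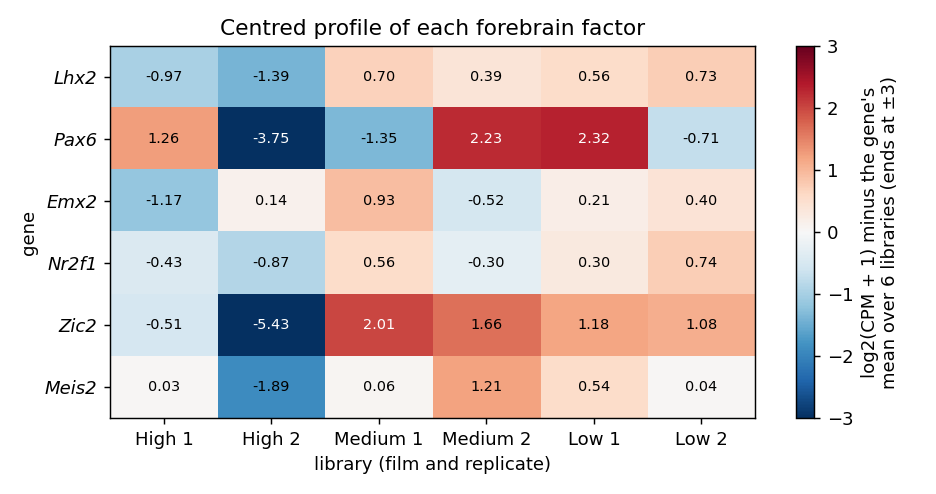
Level of each factor tested in each library on the log2(CPM + 1) scale, minus the gene's own mean over the 6 libraries. High replicate 2 is the lowest library for 5 of the 6 factors (Emx2 is lowest in High replicate 1), and Pax6 is high in High replicate 1, Medium replicate 2 and Low replicate 1.

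Likeness between factors was described by the root mean square difference of these centred profiles over the 6 libraries. Within the set, Lhx2 and Nr2f1 were closest to each other (0.43), and Zic2 was far from all others (1.75 from Meis2, its nearest). Among 39 candidates, the other 5 factors and the 34 tested genes of the regional, partner and patterning lists, the profile nearest to Lhx2 was that of Lmo4 (0.43, as for Nr2f1), which encodes a LIM-only protein that binds the same LIM cofactors as Lhx2. Lmo4 was also nearest to Meis2 (0.66). Pou3f3, a POU factor of upper-layer cortical progenitors, was nearest to Nr2f1 (0.32), Fzd3, a Wnt and planar polarity receptor, to Emx2 (0.50), Tcf7l2, the Wnt effector, to Zic2 (0.51), and Gli2, a hedgehog effector, to Pax6 (1.33). The 6 libraries share their films and their depth, and these distances are descriptions.

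The wider set of listed regional genes was mostly silent or sparse. Of 112 genes with a row, 62 had 0 counts in every library, 34 were tested, and 0 of the 34 passed an adjusted p of 0.05 in any of the 4 comparisons (edgeR's quasi-likelihood test), while DESeq2 called 6 for Low and Medium against High, Lmo4 and Ncor1 among them (4.54% of all genes tested), 5 for Low (3.77%) and 4 for Medium (3.97%) against High, and 3 between Low and Medium (1.53%). For Low and Medium against High, 17 had a positive and 17 a negative log2 fold change. At an unadjusted p under 0.05 there were 3 higher and 3 lower genes, where 5.50% of all genes reached that level and 2.69% did so as higher. In 4 of the 34 all Low and Medium libraries lay above High, or 11.8%, beside 8.06% of all genes tested.

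Among the dorsal telencephalic genes, 7 of 19 were tested. Dmrta2, a cortical hem and medial cortex factor, averaged 142 ± 110 CPM (SD, n = 2) on High, 245 ± 195 on Medium and 29.6 ± 12.2 on Low (log2 fold change −0.73, standard error 0.71, for Low and Medium). Both Low libraries lay below the other 4, and for Low against Medium the log2 fold change of −3.05 (0.91) was called by DESeq2 but not by edgeR (adjusted p = 1). Pou3f3 lay above High in all 4 other libraries (log2 fold change 0.78, standard error 0.49, adjusted p = 0.801). Dlx1 and Dlx2 of the ventral list, named here after their values were seen, were at 0 in all libraries.

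Of the ventral telencephalic genes, 1 of 18 was tested. Nkx2-1, the factor of the medial ganglionic eminence, had 1 count in each Medium library, and Foxp1 had 29 in Medium replicate 2. Of the list for diencephalon, midbrain and their borders only Tcf7l2 was tested. High libraries gave 260 and 10 counts, Medium libraries 1742 and 1122, Low libraries 2216 and 880, all 4 above High (log2 fold change 3.09, standard error 1.06, adjusted p = 0.778). Pax7 and Foxa2 were too sparse to test.

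Relatives of the factors were tested in 5 of 16 cases. Nr2f6, a further member of the COUP-TF family, averaged 31.9 ± 41.7 CPM (SD, n = 2) on High, 83.8 ± 25.3 on Medium and 38.3 ± 3.98 on Low. Meis1 was at 14.0 ± 19.8, 47.3 ± 58.1 and 54.3 ± 35.0 CPM. Nr2c1 rested on 1 library, with 659 counts in Medium replicate 1 and at most 42 in any other. Zic5, which lies near Zic2 in RefSeq, had 55 counts in Medium replicate 2 and 0 elsewhere.

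Partners and cofactors gave 14 tested genes with both directions. Lmo4 averaged 94.1 ± 7.56 CPM (SD, n = 2) on High, 365 ± 114 on Medium and 240 ± 16.8 on Low, all 4 libraries above High (log2 fold change 1.65, standard error 0.43, adjusted p = 0.468). Ncor1, the corepressor of nuclear receptors, was at 507 ± 50.3, 299 ± 26.5 and 243 ± 29.6 CPM, all 4 libraries below High (log2 fold change −0.91, standard error 0.29, adjusted p = 0.694). Lmo1, another LIM-only gene, overlapped between films (178 ± 25.0, 131 ± 107 and 142 ± 118 CPM). Patterning signals were sparse, with 6 of 31 tested. Fzd3 was at 26.6 ± 17.4, 37.0 ± 2.85 and 54.6 ± 5.45 CPM. Bmpr1a, a BMP receptor, was at 26.3 ± 36.2, 23.7 ± 33.5 and 31.1 ± 43.9 CPM. It had 3 counts in High replicate 2 and was at 0 in 1 library of Medium and 1 of Low.

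RefSeq promoters (250 bases before to 50 after the start, GRCr8, a later build than the rn6 named for the counts) were found for 5 of the 9 factors, namely Lhx2, Pax6, Nr2f1, Zic2 and Nkx2-2. Those of Lhx2, Nr2f1 and Zic2 are printed because these are the factors whose Low and Medium libraries lay apart from High and which had a promoter sequence. The count tables give no position, so these windows are not the regions counted. Capitals mark GGGCGG on either strand (a GC box, the site of SP family factors), with overlapping matches joined.
Lhx2, chr3:42535494-42535793, plus strand: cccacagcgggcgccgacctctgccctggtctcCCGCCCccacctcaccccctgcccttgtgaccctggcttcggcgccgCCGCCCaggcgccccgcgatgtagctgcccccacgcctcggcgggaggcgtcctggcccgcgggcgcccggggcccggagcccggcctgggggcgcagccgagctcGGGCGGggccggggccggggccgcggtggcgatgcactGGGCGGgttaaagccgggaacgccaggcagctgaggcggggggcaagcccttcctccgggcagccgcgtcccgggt
Nr2f1, chr2:9785875-9786174, minus strand: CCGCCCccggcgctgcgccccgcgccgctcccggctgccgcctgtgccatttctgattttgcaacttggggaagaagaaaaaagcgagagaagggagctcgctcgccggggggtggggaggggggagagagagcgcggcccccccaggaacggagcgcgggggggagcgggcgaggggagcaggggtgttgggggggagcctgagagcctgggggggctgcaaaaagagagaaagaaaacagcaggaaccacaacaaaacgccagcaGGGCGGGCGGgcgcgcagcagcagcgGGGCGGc
Zic2, chr15:105983092-105983391, plus strand: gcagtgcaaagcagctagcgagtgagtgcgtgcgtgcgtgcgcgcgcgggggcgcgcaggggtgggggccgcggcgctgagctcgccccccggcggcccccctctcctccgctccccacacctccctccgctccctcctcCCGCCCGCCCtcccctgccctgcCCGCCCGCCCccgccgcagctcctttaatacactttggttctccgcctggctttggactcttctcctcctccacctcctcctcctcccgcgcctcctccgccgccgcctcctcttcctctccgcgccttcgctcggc

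These 3 windows held 4 matches to GGGCGG each, while those of Pax6 and Nkx2-2 held 0, and 33.1% of all 33469 promoters held at least 1. Their G and C content was 80.3% for Lhx2, 70.3% for Nr2f1 and 74.3% for Zic2, against 43.0% for Pax6, 64.7% for Nkx2-2 and a median of 51.7% over all promoters. None of the 5 held TATAAA (14.2% of all promoters), CCAAT (37.5%), the homeodomain core TAATTA (5.36%) or the nuclear receptor half-site AGGTCA (16.2%), each sought on both strands. TGACAG, the core bound by MEIS proteins, was found 2 times in the Pax6 window and in 19.0% of all promoters. The share of promoters with 4 or more matches to GGGCGG, or with matches at a like G and C content, was not counted. These are matches of letters in 300 bases and not sites of binding, and their relation to film was not tested.

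**Figure D4:**
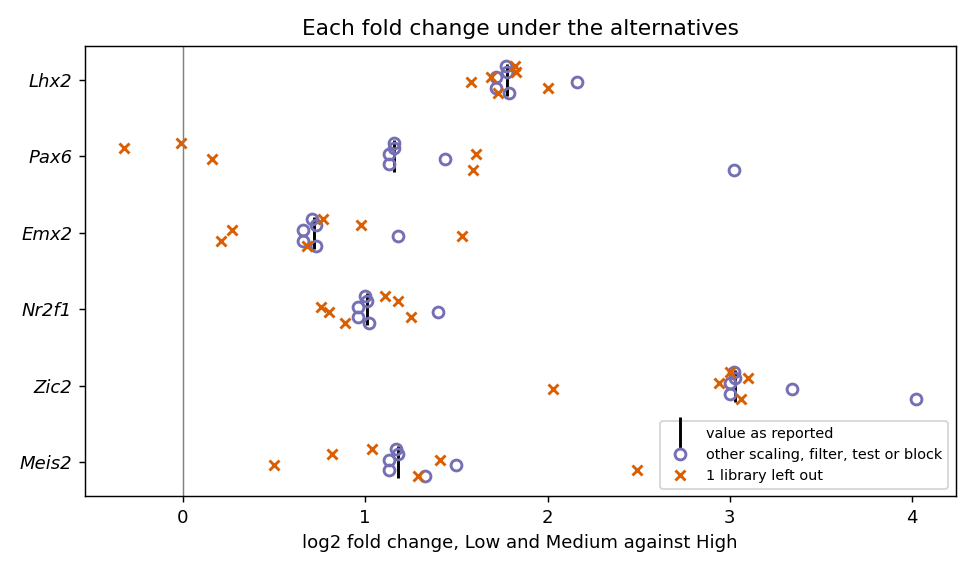
Log2 fold change of Low and Medium against High for each factor as reported (black bar), under other scalings, filters, tests or the replicate block (circles), and with 1 library left out (crosses). The fits without High replicate 1 are left out for Pax6 and Zic2, whose other High library is at 0; Lhx2 stays between 1.58 and 2.16 while Pax6 falls on both sides of 0.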

How the data were processed

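Counts of 6 QuantSeq 3′ libraries of rNSPCs were used, 2 for each film named in the sample titles. Per the methods, the authors used Bowtie2 for alignment of the single-end reads and bedtools for coverage, with reads of several alignments kept, and they deposited raw whole-number counts, 1 table per library. The submitters' processing notes name the build rn6, while tool versions and the annotation are not given in the sources used here. The tables hold no molecular identifiers, so intervals and floors cover counting error only, and 0 columns of other samples were present.

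Rows kept by filterByExpr in edgeR (7729 of 17048) were scaled with TMM and tested with edgeR 4.0.16 in R 4.3.3 (quasi-likelihood test, all 6 libraries in one fit of film means, common dispersion 2.04, Benjamini-Hochberg adjustment, threshold 0.05). Alternatives were DESeq2 1.42.0, other scalings, no filter, removal of ribosomal RNA rows, the replicate block, and leaving out each library. The fit was tested on simulated data. The genes, comparison lists and tests were chosen with earlier results of these data known. All 9 factors were named, and of each comparison list any called gene, the 3 with the highest mean CPM and the profile nearest to each factor, with others marked as named after their values were seen or given within the counts of their list. Some genes that this rule names are not reported here.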

Additional observations from a re-analysis of the deposited data

How the results depend on the processing

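The count of factors called was 0 in each of the 4 comparisons and stayed at 0 with relative log expression size factors, library sizes alone, no filter and without ribosomal RNA rows. DESeq2 called 1 factor (Lhx2) for Low and Medium (4.54% of all genes called), Low (3.77%), and Medium (3.97%) against High, and 0 between Low and Medium (1.53%). With 1 library left out the count ran from 0 to 1 against High in each of the 3 comparisons. Zic2 was called in all 3 without High replicate 1 (0.434% to 0.491% of all genes called), and Lhx2 for Low and Medium without Medium replicate 2 (2.79%). Between Low and Medium it was 0 in each of these fits. The number of factors whose libraries lay apart was 3 to 5, with 6.53% to 15.1% of all genes apart in the same direction. It was 5 without High replicate 1 (15.1%), High replicate 2 (13.2%) or Medium replicate 2 (9.15%). The replicate block gave 0 factors called in every comparison and 57 genes in all for Low and Medium against High, where the fit without it called 10. Deviations of same-numbered libraries correlated by 0.00 to 0.01 over the genes tested, which gave no sign of pairing by number. With many rows at 0 in 1 library of a film, a shared origin could be missed.

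Of 216 alternative log2 fold changes of the factors against High, 204 kept their direction and side of the threshold, 7 became significant in the same direction and 5 turned. Emx2 for Medium was −0.15 without Medium replicate 1 and 1.57 without High replicate 2, the ends of its range. Pax6 was −0.32 for Low and Medium and −1.87 for Medium without Medium replicate 2, and −0.01 for Low and Medium and −1.11 for Low without Low replicate 1. Its highest values, without High replicate 1, were 10.66, 10.59 and 10.73 for Low and Medium, Medium, and Low, set against a lone High library at 0, and are no bounds. The cause was not tested. There were 2 libraries per film, and the smallest difference that could be detected was not measured.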

Other observations

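A few listed genes were at 0 on whole films, and are named here after their values were seen. Fgfr1, a receptor for the bFGF of the culture medium, gave 85 and 563 counts on High and 0 in all 4 Low and Medium libraries. Its High mean of 75.9 CPM was 147-fold above the 3 counts that counting error allows at 0, in the library where that limit is highest. This ratio was 34-fold from High replicate 1 alone and 261-fold from High replicate 2 alone. These ratios are no lower bounds on the difference. In each library, 202 to 1882 rows were at 0 where the other library of the film had at least 50 counts. For Low and Medium against High, the adjusted p of Fgfr1 was 0.531 in edgeR's quasi-likelihood test. DESeq2 called Fgfr1 for Low and Medium (4.54% of all genes tested called), Low (3.77%) and Medium (3.97%) against High. Tle2, a Groucho corepressor, gave 188 and 217 counts on High, 342 and 108 on Medium and none on Low. Its adjusted p for Low and Medium against High was 0.801 in edgeR's test. DESeq2 called Tle2 in that comparison, for Low against High and for Low against Medium (1.53% of all genes tested called), but not for Medium against High.

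Several regional genes were counted in Medium replicate 2 and in no other library, as Nr2f2 was. These were Foxp1 (29 counts), Foxa2 (45), Zic5 (55) and Bmp7 (121), with Ebf1 (1) and Aldh1a1 (4) at few counts. Detection in a lone library was not particular to Medium replicate 2. Fgfr3 had 398 counts in Low replicate 1 only, and Fzd2 (225) and Rarb (17) had counts in High replicate 1 only. Sufu had 119 in High replicate 2 only. All these genes are named after their values were seen. Medium replicate 2 had counts in 7809 rows, the most of the 6 libraries, and 202 rows at 0 where Medium replicate 1 had at least 50.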
